A study of Mus musculus with 6 samples.

Results

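The 36 genes described here encode the Polycomb and trithorax proteins that keep Hox clusters closed or open, and they were chosen by name from a table of 54134 genes. They comprise the core of Polycomb repressive complex 2 (PRC2, 6 genes), its accessory subunits (5 genes), Polycomb repressive complex 1 (PRC1, 17 genes), the H3K27 demethylases (2 genes) and a group of the MLL methyltransferases, menin and Ash1l (6 genes). Each of the 36 was in the table, and 35 of them passed the filter on low counts. RNA came from tailbuds of C57BL/6 mouse embryos at E10.5, with 1 library per embryo. The 2 Cdx2P:Nr6a1 embryos came from pronuclear injection of a transgene in which Cdx2 regulatory sequence drives the long Nr6a1 isoform, so that insertion site and copy number may differ between them. The 4 wildtype embryos carried no transgene. The comparison asks whether keeping Nr6a1, an orphan nuclear receptor, active in the tailbud past its normal clearance changes the transcripts of the proteins that regulate Hox chromatin.

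PRC2 places the repressive H3K27 methyl mark on chromatin, and PRC1 reads it through CBX proteins, compacts the chromatin and ubiquitinates histone H2A. The trithorax side works against this. MLL proteins of the Kmt2 family methylate H3K4, Kdm6 enzymes remove H3K27 methylation, and Ash1l methylates H3K36. In the embryo, Hox genes start under Polycomb marks and lose them in order along each cluster as they are activated, and mutants of many of these genes have homeotic shifts of the vertebral column.

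Total counts lay between 44073460 and 67183802 per library, and the tested members had between 253 and 43767 counts in a library. Nr6a1 had 3.91, 5.18, 5.53 and 6.89 CPM (counts scaled to the column total) in wildtype replicates 1 to 4, and 23.4 and 33.8 CPM in the Cdx2P:Nr6a1 replicates. The groups did not overlap, as their labels require, and edgeR put the log2 fold change at 2.41 with a standard error of 0.20 (adjusted p = 0.00132). Of 39 Hox genes tested, 4 were called higher and 5 lower, which is the setting for the regulators described here. Summed over Ddx3y, Eif2s3y, Kdm5d and Uty, wildtype replicate 3 and Cdx2P:Nr6a1 replicate 2 had 11698 and 12066 counts of Y-linked genes (Y-high libraries), and the other 4 had 1 to 4 counts (Y-low libraries), a division drawn at 1 CPM. All 8 tailbud markers were tested, and Cdx2 was called higher. Their summed level was 2255 to 2516 CPM in wildtype and 2181 to 2410 CPM in Cdx2P:Nr6a1 libraries. Neural tube genes were scarce, with 1 of 7 at 0 counts (Olig2) and 3 tested, of which Sox1 and Sox3 were called higher. The neural sum was 30.5 to 38.8 CPM in wildtype and 43.7 to 56.3 CPM in Cdx2P:Nr6a1 libraries. In the lists for somite, hindgut, erythroid cells, macrophages, endothelium and proliferation, 0 of the tested genes were called. The proliferation sum was 5036 to 5288 CPM in wildtype and 4975 to 5004 CPM in Cdx2P:Nr6a1 libraries, without overlap. The part of neural content or of proliferation in the values below was not tested, and in bulk tissue fewer cells of a type cannot be told apart from less RNA per cell.

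Transcript levels of most members lay close together with and without the transgene. At an adjusted p under 0.05 in edgeR's quasi-likelihood test, 0 of the 35 tested members were called, where 1.59% of all 12733 genes tested were. At an unadjusted p under 0.05 there was 1 higher member, Phc2, where 5.54% of all genes tested were higher with such a p. There was 1 lower member, Jarid2, where 4.99% of all genes tested were lower. DESeq2 called both of these members, and it called 3.75% of all genes tested. Of the 35, 17 were higher and 18 lower, and their median log2 fold change was -0.0022, beside -0.00071 over all genes tested. The 2 groups did not overlap for 6 members (17.1%), which is close to the 18.5% of all genes tested for which this held. These were Rbbp7, Cbx2 and Phc2 on the higher side and Jarid2, Aebp2 and Phc3 on the lower side.

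A test that makes no call does not show that levels are alike, so the 95% interval of each fold change was examined. The interval lay within 1.5-fold in either direction for 34 of the 35 members, beside 89.4% of all genes tested. It lay within a narrower limit, a ratio 25% above 1 or its inverse, for 29 members, beside 65.4% of all genes tested. The intervals of the members had a median half-width of 0.14 on the log2 scale, and those of all genes tested had 0.17. The member outside 1.5-fold was Kdm6a. Those inside 1.5-fold but outside the 25% limit were Bmi1, Pcgf5, Cbx7, Cbx8 and Phc2.

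**Figure D1:**
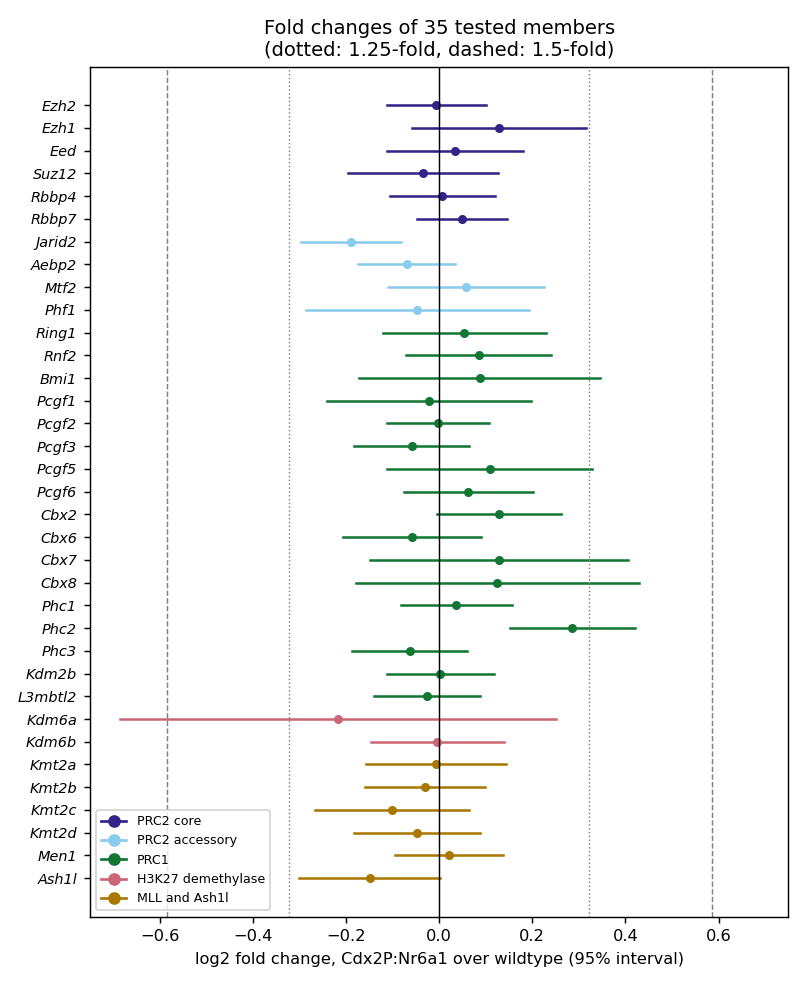
Log2 fold changes of the 35 tested members (points, x axis) with 95% intervals (lines), coloured by complex; dotted lines mark the 25% limit and dashed lines 1.5-fold. The interval of Kdm6a is the widest and reaches past 1.5-fold, that of Phc2 lies wholly above 0 and that of Jarid2 wholly below 0.

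Levels of different genes can be compared only per length, and here the unit was RPKM, which is CPM divided by the exon length in kilobases. In wildtype tailbuds, 24 of the 35 members stood above the median RPKM of the genes tested. The histone-binding subunits Rbbp7 and Rbbp4, which also serve in other chromatin complexes, led with 114 and 74.7 RPKM. Suz12, the scaffold of PRC2, stood at 38.7, the chromodomain protein Cbx2 at 37.0 and the methyltransferase Ezh2 at 34.3 RPKM. The lowest tested members were Cbx7 with 1.09 and Pcgf5 with 1.27 RPKM. Exon length here counts all annotated exons of a gene, so RPKM understates genes with long exons that are seldom used.

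**Figure D2:**
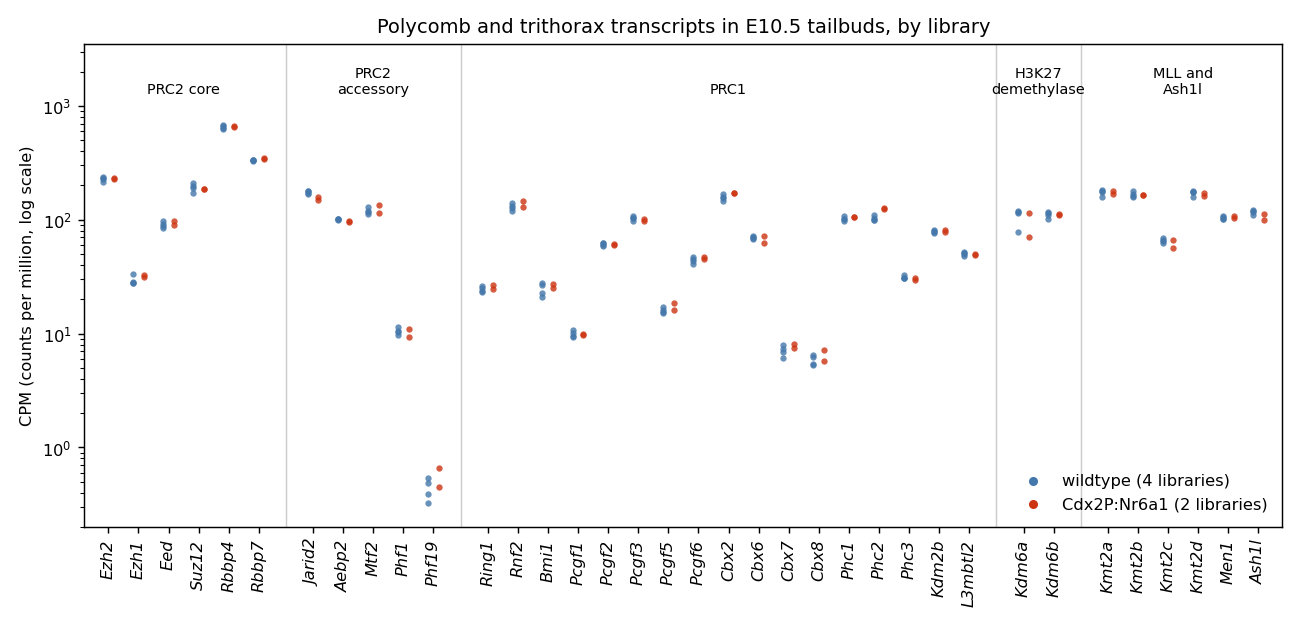
CPM of the 36 members (y axis, log scale) by complex; each point is a library, 4 wildtype (blue) and 2 Cdx2P:Nr6a1 (red). Levels run from at most 0.66 CPM for Phf19 to at least 623 CPM for Rbbp4, and for each gene the red points sit in or beside the range of the blue ones.

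In the PRC2 core, 0 of 6 genes were called and each interval lay within the 25% limit. Ezh2, the main H3K27 methyltransferase of dividing cells, had 216, 229.8, 238 and 232 CPM in wildtype replicates 1 to 4 and 231 and 227 CPM in the Cdx2P:Nr6a1 replicates. Both transgenic values lay inside the wildtype range, with a log2 fold change of -0.0064 (95% interval -0.11 to 0.10). Suz12 had 170.5, 188.7, 208.6 and 198.5 CPM in wildtype and 187.7 and 187.9 CPM in Cdx2P:Nr6a1 libraries, again inside the wildtype range. Eed, which binds the methylated histone tail, had 84.1 to 97.3 CPM in wildtype and 97.3 and 89.1 CPM in the transgenic libraries (log2 fold change 0.03, 95% interval -0.11 to 0.18). Wildtype replicate 1 was the lowest wildtype library for Ezh2, Eed, Suz12 and Rbbp4, and wildtype replicate 3 the highest. Ezh1, the paralog of Ezh2 that is typical of resting cells, ran the other way, with 33.2 CPM in wildtype replicate 1 and 27.9 to 28.4 CPM in the others. Its Cdx2P:Nr6a1 values were 33.0 and 31.5 CPM, between these (log2 fold change 0.13, 95% interval -0.06 to 0.31).

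Ezh2 made up 87.9% to 90.5% of the summed RPKM of Ezh1 and Ezh2 in wildtype libraries, and 88.6% and 88.9% in Cdx2P:Nr6a1 libraries. The balance of the methyltransferases thus lay inside the wildtype range in both transgenic embryos. Rbbp4 had 623 to 684 CPM in wildtype and 666 and 651 CPM in the transgenic libraries. Rbbp7 had 326, 335, 332 and 335 CPM in wildtype and 343 and 347 CPM in Cdx2P:Nr6a1 libraries. For Rbbp7 the groups did not overlap, but the difference was small, with a log2 fold change of 0.05 (95% interval -0.05 to 0.15, adjusted p = 0.838, edgeR).

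The accessory subunits steer PRC2 to its sites, and 0 of the 4 tested were called. Jarid2, which recruits PRC2 to CpG-rich targets, had 177, 179, 173 and 168 CPM in wildtype and 158 and 149 CPM in Cdx2P:Nr6a1 libraries. Both transgenic libraries lay below every wildtype library. The log2 difference was -0.19 (95% interval -0.30 to -0.08, standard error 0.05). It did not pass edgeR's test across all genes (adjusted p = 0.112). DESeq2 called it (adjusted p = 0.0153), as did the fit without a filter (adjusted p = 0.0493), and over 18 alternatives the adjusted p ran from 0.0153 to 0.419. Within the Y-low libraries (3 against 1) the log2 difference was -0.16, and within the Y-high libraries (1 against 1) it was -0.21. No test was run on these, and their sign was fixed beforehand, because the groups did not overlap.

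Aebp2, which partners Jarid2 in the same form of PRC2, had 99.5 to 102 CPM in wildtype and 94.9 and 98.4 CPM in Cdx2P:Nr6a1 libraries, without overlap (log2 fold change -0.07, 95% interval -0.17 to 0.03, adjusted p = 0.728, edgeR). The Polycomb-like proteins Mtf2, Phf1 and Phf19 belong to the other form of PRC2. Mtf2, the most abundant of them, had 113.2 to 129.9 CPM in wildtype, and 135.5 and 114.9 CPM in the transgenic libraries, the first above that range and the second inside it. Phf1 was at 9.67 to 11.4 CPM in wildtype and at 11.1 and 9.39 CPM in the transgenic libraries. Phf19 had at most 0.66 CPM in a library and was the member below the filter.

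In PRC1, 0 of 17 genes were called. Of these, 11 were higher and 6 lower, and the median log2 difference was 0.05. The catalytic RING proteins differed in level. Rnf2 had 119 to 141 CPM in wildtype and 146 and 131 CPM in Cdx2P:Nr6a1 libraries, and Ring1 had 23.4 to 26.1 CPM in wildtype and 24.6 and 26.8 CPM. Rnf2 held 78.2% to 82.5% of their summed RPKM in wildtype libraries and 82.3% and 79.3% in transgenic libraries.

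The PCGF proteins decide which form of PRC1 a RING protein joins. By RPKM, Pcgf6 and Pcgf2 (Mel18) were the most abundant of the 6 in wildtype tailbuds with 20.99 and 17.3, followed by Pcgf3 with 10.9. Bmi1 and Pcgf1 were near each other with 6.19 and 6.03 RPKM, and Pcgf5 was lowest. Pcgf2, whose loss gives posterior homeotic shifts in mice, had 59.0 to 62.6 CPM in wildtype and 61.7 and 60.5 CPM in Cdx2P:Nr6a1 libraries (log2 fold change -0.0022, 95% interval -0.11 to 0.11). Bmi1 had 21.1, 22.6, 26.9 and 27.8 CPM in wildtype and 25.2 and 27.2 CPM in Cdx2P:Nr6a1 libraries. After Kdm6a it varied most among the tested members in wildtype embryos, with a coefficient of variation of 13.3%, and its interval of -0.17 to 0.34 was among the wider ones. The log2 fold changes of Pcgf1, Pcgf3, Pcgf5 and Pcgf6 were -0.02, -0.06, 0.11 and 0.06.

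Among the CBX proteins, which bind methylated H3K27, Cbx2 held 79.3% to 80.8% of the summed RPKM of Cbx2, Cbx6, Cbx7 and Cbx8 in wildtype libraries. In Cdx2P:Nr6a1 replicates 1 and 2 this share was 82.3% and 80.5%, the first above that range and the second inside it. Cbx2 had 168.8, 147.4, 157.1 and 155.8 CPM in wildtype and 172.5 and 172.8 CPM in Cdx2P:Nr6a1 libraries. The transgenic values lay above every wildtype value, with a log2 fold change of 0.13 (95% interval -0.0043 to 0.26, adjusted p = 0.495, edgeR). Cbx6 had 67.3 to 72.6 CPM in wildtype, and 62.8 and 71.7 CPM in the transgenic libraries. Its share of the family was 13.8% to 14.8% in wildtype and 12.01% and 13.4% in the transgenic libraries, without overlap. Cbx7 and Cbx8 were scarce, at 6.08 to 8.01 and 5.33 to 6.53 CPM in wildtype, and their log2 fold changes were 0.13 (95% interval -0.15 to 0.41) and 0.12 (95% interval -0.18 to 0.43). These intervals do not exclude a difference as large as the 25% limit in either gene.

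The Polyhomeotic proteins join PRC1 complexes into larger bodies, and their family held the member closest to a call. Phc2 had 110.8, 99.2, 98.9 and 104.4 CPM in wildtype replicates 1 to 4 and 125.0 and 128.0 CPM in the Cdx2P:Nr6a1 replicates. The lower transgenic value stood above the highest wildtype value. The log2 fold change was 0.29 (95% interval 0.15 to 0.42, standard error 0.06), a ratio of 1.22, and the adjusted p of 0.0556 from edgeR missed the threshold. Of 18 alternatives with a test, 8 called it, with an adjusted p that ran from 0.000138 to 0.272 over the 18. Those 8 were the likelihood ratio and exact tests, DESeq2, limma voom, robust estimation, library size only, no filter, and the fit without wildtype replicate 1. Those 8 called between 1.38% and 3.75% of all genes in the fit. The direction was the same in all 18, which reuse the same libraries. Within the Y-low libraries (3 against 1) the log2 difference was 0.24, and within the Y-high libraries (1 against 1) it was 0.37. No test was run on these, and their sign was fixed beforehand, because the groups did not overlap.

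Phc1 had 98.3 to 108 CPM in wildtype and 105.3 and 105.6 CPM in Cdx2P:Nr6a1 libraries, inside the wildtype range. Phc3 had 30.9, 31.0, 32.8 and 31.0 CPM in wildtype and 29.7 and 30.6 CPM in the transgenic libraries, just below them (log2 fold change -0.06, 95% interval -0.19 to 0.06). The shares of Phc2 and Phc1 within the family did not overlap between the 2 groups. Phc2 held 40.0% to 41.5% of the summed RPKM in wildtype and 45.1% and 45.5% in Cdx2P:Nr6a1 libraries. Phc1 held 53.6% to 54.9% in wildtype and 50.6% and 50.1% in Cdx2P:Nr6a1 libraries. These shares are a description, since they were looked at with the values of Phc2 known. They are also tied to each other, so a higher share of Phc2 lowers that of Phc1 at like levels of Phc1.

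**Figure D3:**
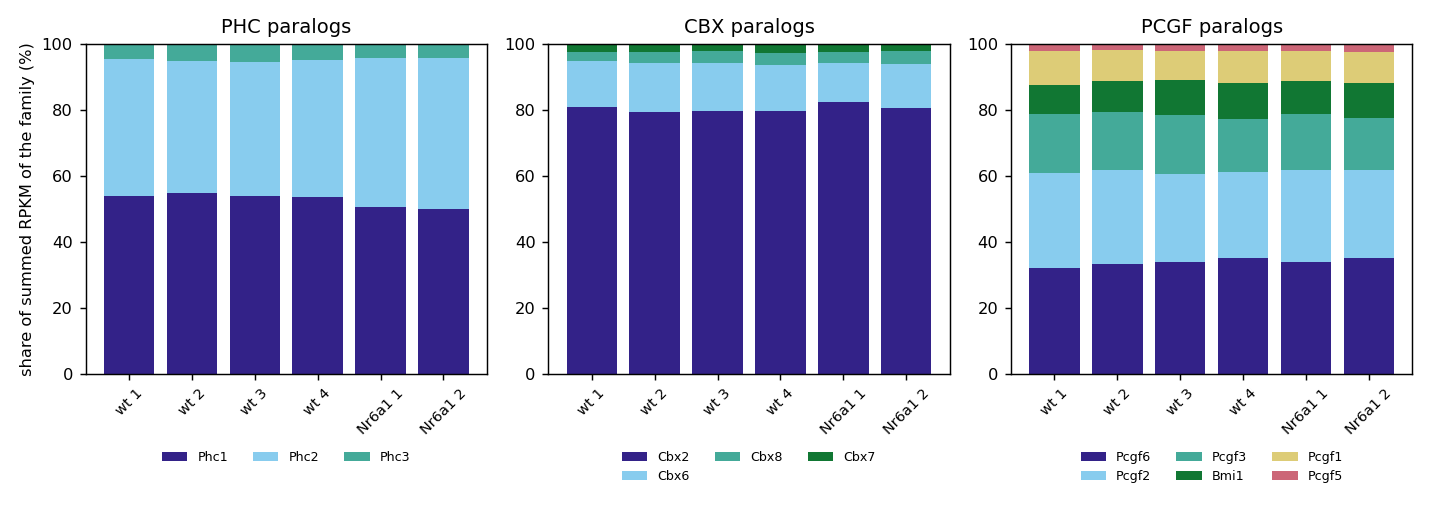
Share of each paralog in the summed RPKM of the PHC, CBX and PCGF families (y axis, percent) in each library; bars are the 4 wildtype (wt) and 2 Cdx2P:Nr6a1 (Nr6a1) libraries. The Phc2 segment is 45.1% and 45.5% in the transgenic libraries and at most 41.5% in wildtype; Cbx2 is the main part of the CBX bar in all 6 libraries.

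Phc2 lies on the forward strand of chromosome 4 (GRCm38, 128654702 to 128752881) and has 3 starts in the RefSeq promoter table. The window of each start, from 250 bases before it to 50 after, is shown because the starts differ in CpG content, the feature Polycomb and MLL proteins respond to. CpG pairs are in capitals. The counts are summed over all exons of the gene and do not say which start was used.

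Phc2 start A, chr4:128654452-128654751: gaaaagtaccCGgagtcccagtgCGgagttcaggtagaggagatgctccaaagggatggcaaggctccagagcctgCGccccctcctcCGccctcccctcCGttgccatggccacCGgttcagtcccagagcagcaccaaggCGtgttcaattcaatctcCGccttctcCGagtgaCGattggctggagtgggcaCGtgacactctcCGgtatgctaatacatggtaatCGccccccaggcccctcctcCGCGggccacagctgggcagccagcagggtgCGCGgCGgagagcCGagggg

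Phc2 start B, chr4:128688488-128688787: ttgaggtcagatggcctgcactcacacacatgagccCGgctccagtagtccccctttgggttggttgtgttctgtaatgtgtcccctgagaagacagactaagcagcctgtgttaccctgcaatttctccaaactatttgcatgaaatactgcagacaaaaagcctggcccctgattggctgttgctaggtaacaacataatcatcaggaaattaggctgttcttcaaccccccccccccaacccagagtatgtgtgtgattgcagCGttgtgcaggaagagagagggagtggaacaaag

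Phc2 start C, chr4:128727321-128727620: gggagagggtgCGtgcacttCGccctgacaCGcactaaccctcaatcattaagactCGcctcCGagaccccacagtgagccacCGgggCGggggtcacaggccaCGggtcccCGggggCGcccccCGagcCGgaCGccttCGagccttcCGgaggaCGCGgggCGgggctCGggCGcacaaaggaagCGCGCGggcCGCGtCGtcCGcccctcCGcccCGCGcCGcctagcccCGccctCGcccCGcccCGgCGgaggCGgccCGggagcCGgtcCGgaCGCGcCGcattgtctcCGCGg

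The window of start A holds 19 CpG pairs (observed over expected ratio 0.61), that of start B holds 2 (ratio 0.11) and that of start C holds 45 (ratio 1.02). RefSeq promoter windows were found for 31 of the 36 members, 44 windows in all. Of these, 36 (81.8%) had a ratio above 0.6, compared with 70.4% of the windows of the genes tested and 35.8% of all windows. The element TCAAGGTCA, which Nr6a1 is known to bind, was searched on both strands. It was in 0 of the 44 windows, and in 0.264% of the windows of the genes tested and 0.423% of all windows. The shorter AGGTCA, which lies within it, was in 5 windows (11.4%), those of Kdm6a, Pcgf2, Phc3, Phf1 and start B of Phc2, beside 11.9% of the windows of the genes tested and 16.3% of all windows. These matches describe letters in a window and not binding.

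The other PRC1 members belong to its variant forms. Kdm2b, which brings one of them to unmethylated CpG, had 77.2 to 82.1 CPM in wildtype and 78.4 and 81.5 CPM in Cdx2P:Nr6a1 libraries (log2 fold change 0.0026, 95% interval -0.11 to 0.12). L3mbtl2, of the form that holds Pcgf6, had 48.4 to 51.6 CPM in wildtype and 50.4 and 48.7 CPM in the transgenic libraries (log2 fold change -0.03, 95% interval -0.14 to 0.09). For both genes the transgenic values lay inside the wildtype range. Exons of L3mbtl2 share 17.2% of their bases with the opposite gene Chadl, those of Rbbp4 share 18.0% with Sync and Gm26722, and those of the other members share at most 8.74%, so that reads there may have been given to neither gene.

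The H3K27 demethylases behaved unlike each other. Kdm6b (Jmjd3) had 101.6 to 117.9 CPM in wildtype and 112.2 and 109.7 CPM in Cdx2P:Nr6a1 libraries (log2 fold change -0.0041, 95% interval -0.15 to 0.14). Kdm6a (Utx), on the X chromosome, had 116.0, 119.4, 77.3 and 113.6 CPM in wildtype and 114.4 and 70.2 CPM in the transgenic libraries. The 2 low values came from wildtype replicate 3 and Cdx2P:Nr6a1 replicate 2. These were also the 2 Y-high libraries, with 209.2 and 179.6 CPM of Y-linked transcripts, where the 4 Y-low libraries had at most 0.089 CPM. Xist, the X-inactivation RNA, was at 854 to 1015 CPM in the Y-low and at 1.77 and 0.953 CPM in the Y-high libraries.

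Kdm6a is known to escape X inactivation in the mouse. Its mean was 115.9 ± 2.53 CPM (SD, n = 4) in the Y-low libraries and 73.8 CPM in the 2 Y-high libraries, which is 63.7% of the former. In a fit with genotype and log2 Y-linked CPM, edgeR called 8 genes for the Y-linked term, 0.0628% of those tested, and Kdm6a was the 1 member among them (adjusted p = 0.00326). The others were Xist, Eif2s3x, Gm29650 and the 4 Y-linked genes themselves. Rbbp7, the other X-linked member, had a mean of 334.8 CPM in the Y-low and 339.8 CPM in the Y-high libraries.

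The genotype comparison of Kdm6a depended on this division. In edgeR the log2 difference was -0.22 ± 0.21 (standard error, adjusted p = 0.854) in the fit without the Y-linked term and -0.08 ± 0.05 (adjusted p = 0.732) with it. The edgeR fit without a filter on low counts, also without the term, called the difference (adjusted p = 0.0123). Leaving out Cdx2P:Nr6a1 replicate 2 turned it to 0.09, and leaving out replicate 1 took it to -0.60. Within the Y-low libraries the log2 difference between genotypes was -0.04 (3 against 1), and within the Y-high libraries it was -0.14 (1 against 1), both without a test. With the term, the intervals of all 35 members lay within 1.5-fold.

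Uty, the Y-linked paralog of Kdm6a, had 36.1 and 28.7 CPM in the 2 libraries. Per length, Kdm6a was at 13.6 to 14.2 RPKM in the 4 Y-low libraries and at 9.22 and 8.38 RPKM in the others, where Uty added 3.68 and 2.93 RPKM. The sum of both was 13.6 to 14.2 RPKM in the 4 libraries, 12.9 RPKM in wildtype replicate 3 and 11.3 RPKM in Cdx2P:Nr6a1 replicate 2. The 2 libraries thus stayed below the other 4 also when Uty was counted.

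**Figure D4:**
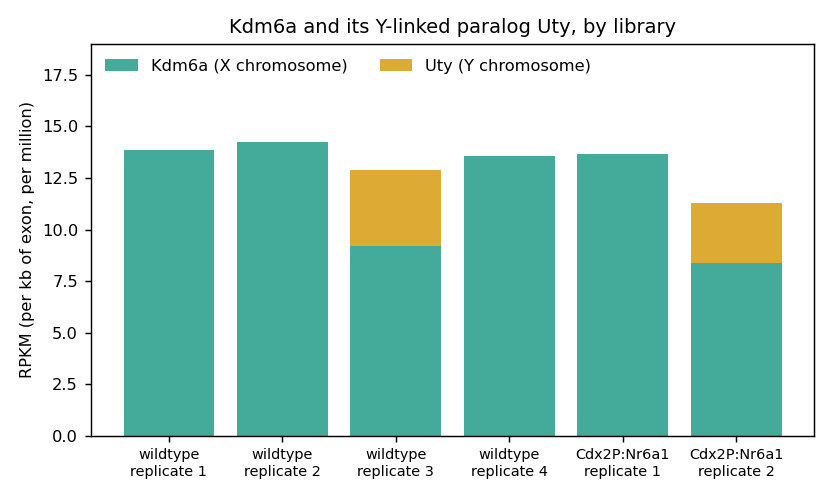
RPKM (y axis) of Kdm6a and, stacked on it, of Uty in each of the 6 libraries (x axis). The Kdm6a bar is lower in wildtype replicate 3 (9.22) and Cdx2P:Nr6a1 replicate 2 (8.38) than in the other 4 (13.6 to 14.2), and Uty is seen in those 2 libraries.

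The window of the Kdm6a start (chrX:18162325-18162624, GRCm38, forward strand) is shown with its CpG pairs in capitals as an X-linked counterpart to the windows of Phc2. It holds 21 CpG pairs (observed over expected ratio 0.71).

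Kdm6a start: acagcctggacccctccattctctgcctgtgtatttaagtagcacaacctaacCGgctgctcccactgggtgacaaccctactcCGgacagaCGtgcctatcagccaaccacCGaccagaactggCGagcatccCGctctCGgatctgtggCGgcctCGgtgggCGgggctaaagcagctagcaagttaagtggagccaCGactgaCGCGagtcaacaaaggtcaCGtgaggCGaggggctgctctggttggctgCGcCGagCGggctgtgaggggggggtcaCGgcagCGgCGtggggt

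In the group of MLL methyltransferases, menin and Ash1l, 0 of 6 genes were called, and 5 were lower and 1 higher. Each of their intervals lay within the 25% limit. Kmt2a (Mll1), which maintains Hox expression, had 177, 184, 175 and 157.5 CPM in wildtype and 167.1 and 179.8 CPM in Cdx2P:Nr6a1 libraries, inside the wildtype range (log2 fold change -0.0065, 95% interval -0.16 to 0.14). Kmt2b had 160.0 to 180.2 CPM in wildtype and 164.7 and 165.6 CPM in the transgenic libraries. Kmt2c and Kmt2d, the enhancer H3K4 methyltransferases, had 62.6 to 69.2 and 159.6 to 177.5 CPM in wildtype. In the transgenic libraries, Kmt2c was at 56.5 and 66.8 CPM and Kmt2d at 160.3 and 173.5 CPM. For Kmt2c, Cdx2P:Nr6a1 replicate 1 was the lowest of the 6 libraries and replicate 2 lay inside the wildtype range (log2 fold change -0.10, 95% interval -0.27 to 0.06). Men1, whose product menin binds Kmt2a and Kmt2b, had 101.5 to 107.6 CPM in wildtype and 103.4 and 108.2 CPM in the transgenic libraries (log2 fold change 0.02).

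Ash1l, which counters PRC2 through H3K36 methylation, had 117.0, 119.2, 122.2 and 109.1 CPM in wildtype and 99.2 and 112.3 CPM in Cdx2P:Nr6a1 libraries. One transgenic library lay below the wildtype range and the other within it, with a log2 fold change of -0.15 (95% interval -0.30 to 0.0027, adjusted p = 0.484, edgeR). Kmt2b held 61.3% to 64.3% of the summed RPKM of Kmt2a and Kmt2b in wildtype libraries and 63.1% and 61.5% in the transgenic libraries. Kmt2d held 71.9% to 73.3% of that of Kmt2c and Kmt2d in wildtype, and 74.3% and 72.6% in the transgenic libraries.

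Among wildtype embryos the members varied about as much as the genes tested. The median coefficient of variation over the 4 wildtype libraries was 5.26%, beside 5.85% over all genes tested. The lowest values were those of Aebp2 (1.17%) and Rbbp7 (1.29%). The highest was that of Kdm6a with 18.4%, which was 2.47% over the 3 Y-low wildtype libraries.

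Other subunits and partners of these complexes were examined as well. Of 44 partner genes 43 were tested, all but Pagr1a. EdgeR called 0 of them and DESeq2 called 0, beside 1.59% and 3.75% of all genes tested. At an unadjusted p under 0.05 in edgeR, 0 were higher, where 5.54% of all genes tested were. There was 1 lower partner gene, where 4.99% of all genes tested were lower. That gene was Epop, a PRC2 cofactor, with 48.4, 50.1, 47.9 and 56.6 CPM in wildtype and 46.5 and 42.1 CPM in Cdx2P:Nr6a1 libraries (log2 fold change -0.20, standard error 0.08, adjusted p = 0.353, edgeR). Both transgenic values lay below every wildtype value. Of the 43, 12 were higher and 31 lower, beside 6326 higher and 6407 lower of all genes tested, and the median log2 difference was -0.03. Each of the 43 intervals lay within 1.5-fold, beside 89.4% of all genes tested. The groups did not overlap for 5 of the 43, beside 18.5% of all genes tested, namely Epop and Kansl1 on the lower and Rybp, Wdr5 and Scmh1 on the higher side, of which all but Epop are named for this pattern after their values were seen. The next by size were Kdm5c, Bcor, Sfmbt2 and Smarca4, with log2 fold changes of -0.17, -0.14, 0.12 and -0.10. Kdm5c, an X-linked H3K4 demethylase, had 201 and 213 CPM in the 2 Y-high libraries and 265 to 295 CPM in the 4 Y-low libraries.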

How the data were processed

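RNA of 6 tailbuds (4 wildtype, 2 Cdx2P:Nr6a1) was sequenced from polyA, stranded libraries, 1 per embryo. Per the labels, the authors aligned reads with STAR to mm10, and they deposited raw counts per gene with exon coordinates. The version of STAR, the counting program and the use of strand are not given in the sources used here. Of 2753 exons of the members, 2751 were the same in GENCODE M21 on GRCm38. The authors' own table of called genes (fold change, FDR, CPM) was not used.

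CPM used column totals, and RPKM also the exon length in the table, an annotation value of unit other that the authors deposited. Genes with a count above 10 and CPM above 2 in at least 2 libraries were tested with edgeR 4.0.16 in R 4.3.3 (TMM, quasi-likelihood test, genotype alone), adjusted by Benjamini-Hochberg over 12733 genes and called under 0.05. The standard error was the fold change divided by the square root of F, and 95% intervals used the total degrees of freedom. Libraries lay between 44073460 and 67183802 counts. An exact permutation test of 2 libraries against 4 cannot reach 0.05, so the model carries the tests. The method was tested on simulated data. Alternatives included DESeq2 1.42.0 and limma 3.58.1.

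All 36 members, the partners called or with the 5 largest changes, Nr6a1 and sex-linked genes were to be named. The members, lists and tests were chosen with earlier results of these data known. Groups follow the genotype in the labels.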

Additional observations from a re-analysis of the deposited data

Results flagged for a closer look

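In 3 of 36 genes examined (the 35 tested members and Nr6a1), 1 of the 4 wildtype libraries stood apart by Dixon's ratio, the gap to the nearest library over the whole range, being past its 95% critical value. Chance gives this in about 1 group of 20.

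For Kdm6a, wildtype replicate 3 was the lowest with a ratio of 0.864, at 77.3 CPM beside 113.6 to 119.4 CPM. It was the 1 Y-high wildtype library (209 CPM summed over 4 Y-linked genes). For Ezh1, wildtype replicate 1 was the highest with a ratio of 0.907, at 33.2 CPM beside 27.9 to 28.4 CPM. For Phc3, wildtype replicate 3 was the highest with a ratio of 0.947, at 32.8 CPM beside 30.9 to 31.0 CPM, a narrow range in which the coefficient of variation was 2.93%.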

How the results depend on the processing

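The quasi-likelihood test called 0 members and 1.59% of all genes tested. The likelihood ratio test, the exact test, limma voom, robust estimation and library size only each called 1 (Phc2). DESeq2 called 2 (Phc2 and Jarid2), and the fit without a filter called 3 (these and Kdm6a). That fit had no Y-linked term, and with the term edgeR did not call Kdm6a (adjusted p = 0.732). The share of all genes called also moved, to 3.15% in the likelihood ratio test, 3.07% in the exact test, 1.86% in both limma voom and robust estimation, 1.54% with library size only, 3.75% in DESeq2 and 2.69% without a filter. With 1 library left out the number was 0 to 1, and it was 1 without wildtype replicate 1 (Phc2). A lone Cdx2P:Nr6a1 library was assumed to vary like the wildtype libraries. Members with non-overlapping groups numbered 6 to 13 with 1 library left out, where the share over all genes also moved, to between 22.7% and 48.7%. They were 10 without wildtype replicate 1 or 4, and 12 and 13 without Cdx2P:Nr6a1 replicate 1 and 2. The number of members with an interval within 1.5-fold stayed between 33 and 35 in the alternatives that give an interval. The number within the 25% limit, 29 in the main fit, was less stable. With both Cdx2P:Nr6a1 libraries kept, it ran from 25 with the replicate number as a block to 31 in DESeq2. The median fold change moved by less than the spread between wildtype libraries in all alternatives run.

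Replicate numbers 1 and 2 occur in both groups. Deviations of same-numbered libraries from their group means had r = 0.20 in 1 pair and r = -0.15 in the other. With 2 transgenic libraries these deviations are mirror images, so the 2 values are not separate checks. They cannot show whether same-numbered libraries share more than a number. With the replicate number as a block, 0 members and 1 partner gene (Kdm5c) were called, with 3.47% of all genes. Every comparison rests on 2 transgenic embryos.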
